A study of Mus musculus with 16 samples.

Results

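The cytotoxic effector genes described here are 9 named genes of mouse CD4 T cells: the granzymes Gzma, Gzmb, Gzmc, Gzmk and Gzmm, the pore former Prf1, the granule membrane gene Nkg7, the granule peptidase Ctsw and the death ligand Fasl. They were taken by name, and all 9 were present among the 23420 genes of the RNA files and among the 22269 gene intervals of the ChIP files. Control cells came from Ezh2 fl/fl mice, whose Ezh2 gene carries floxed alleles without Cre, and Ezh2-deleted cells (labelled Ezh2-/-) from Ezh2 fl/fl.CD4Cre mice. Naive CD4+ T cells of each genotype were flow sorted and activated with 5 ug/ml of plate-bound antibody to CD3 and 1 ug/ml of soluble antibody to CD28. Th0 cultures received 50 U of IL-2, and iTreg cultures (induced regulatory T cells) received 200 U/ml of IL-2 with 5 ng/ml of TGF-b1. Sample titles give day 4 for Th0 and day 5 for iTreg, while the protocol gives harvest on day 4, so culture and day cannot be told apart. RNA was sequenced from 3 libraries for each genotype in each culture, described as biological replicates, and trimethylated lysine 27 of histone H3 (H3K27me3) was mapped by ChIP-seq in 2 Th0 libraries per genotype. Cd4 is also active in the precursors of CD8 T cells in the thymus, so a Cd4-driven Cre deletes before the naive cell is sorted and not only in culture.

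Cytotoxic lymphocytes store granzymes, a family of serine proteases, in granules together with perforin, which forms pores that let granzymes enter a target cell. Fas ligand is a second route to target cell death, through the death receptor Fas. These genes are typical of natural killer and CD8 T cells and are low in most helper and regulatory CD4 T cells. Ezh2 is the catalytic subunit of Polycomb repressive complex 2, which writes H3K27me3, a mark of genes held silent.

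RNA libraries held 21910114 to 28443427 counted reads and ChIP libraries 11124172 to 15103496. The targeted gene was read first. Ezh2 stood at 295 to 312 CPM (a gene's reads scaled to the library's total counted reads) in Th0 control libraries and at 148 to 169 in Th0 Ezh2-deleted libraries, without overlap, a log2 change of -0.99 (SE 0.30, edgeR adjusted p = 0.0618). In iTreg cells it stood at 166 to 251 CPM in controls and at 48.7 to 123 in Ezh2-deleted libraries (log2 change -1.18, SE 0.30, adjusted p = 0.0235). The counts cover the whole gene, so transcripts that lack only the floxed part still count. Foxp3, which defines regulatory T cells, was at 849.5 to 979 CPM in the iTreg controls, at 65.2 to 90.9 in Ezh2-deleted iTreg libraries and at 15.9 to 23.9 in Th0 controls. Among iTreg libraries, Ezh2-deleted library Ezh2KO.165 and control 177 stood apart: chi-square per degree of freedom against their group mates was 442 and 471 for Ezh2KO.165, and 173 and 141 for 177, against 5.26 and 9.71 between the other pairs. Both libraries named Ezh2KO.165 are also those with Xist reads (27248 in Th0 and 25036 in iTreg, at most 21 elsewhere). Results are therefore given with and without these libraries. In whole cultures, fewer cells that express a gene and less RNA per cell cannot be told apart.

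Promoter sequences of 8 members were found in the RefSeq table (build GRCm38.p6), and Ctsw had no entry. The 250 bases before the start site are printed 5′ to 3′ on the gene's strand for 7 granzyme and perforin genes. Gzma, Prf1 and Gzmk are shown because their intervals carried less H3K27me3 in Ezh2-deleted cells. Gzmb, Gzmc, Gzmd and Gzmn are shown because they lie together in the granzyme cluster of chromosome 14 and range from the most abundant member to a copy without a read. Capitals mark a Runx motif (TGTGGT or TGCGGT, read on either strand, so that ACCACA is the same motif reversed), except in Gzmk, which holds no Runx match and where they mark a T-box motif (GGTGTG).

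Gzma, chr13:113100982-113101231, minus strand: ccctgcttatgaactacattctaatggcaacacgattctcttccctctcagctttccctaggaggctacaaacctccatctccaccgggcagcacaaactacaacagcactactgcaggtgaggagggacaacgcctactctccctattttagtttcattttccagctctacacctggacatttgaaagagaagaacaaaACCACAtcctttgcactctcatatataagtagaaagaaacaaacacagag
Prf1, chr10:61297586-61297835, plus strand: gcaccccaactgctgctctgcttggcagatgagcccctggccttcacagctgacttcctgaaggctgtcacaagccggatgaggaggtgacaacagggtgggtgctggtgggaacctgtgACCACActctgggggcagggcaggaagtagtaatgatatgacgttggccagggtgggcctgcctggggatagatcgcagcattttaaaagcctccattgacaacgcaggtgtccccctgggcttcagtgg
Gzmk, chr13:113180966-113181215, minus strand: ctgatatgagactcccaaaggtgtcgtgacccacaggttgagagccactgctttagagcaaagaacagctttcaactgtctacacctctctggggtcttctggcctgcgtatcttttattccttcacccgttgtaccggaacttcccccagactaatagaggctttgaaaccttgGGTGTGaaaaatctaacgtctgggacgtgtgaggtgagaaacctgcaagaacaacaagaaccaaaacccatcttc
Gzmb, chr14:56262335-56262584, minus strand: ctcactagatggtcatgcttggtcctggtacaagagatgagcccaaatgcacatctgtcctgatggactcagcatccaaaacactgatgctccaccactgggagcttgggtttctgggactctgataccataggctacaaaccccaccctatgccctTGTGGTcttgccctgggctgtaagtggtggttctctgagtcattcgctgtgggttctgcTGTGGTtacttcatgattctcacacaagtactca
Gzmc, chr14:56234658-56234907, minus strand: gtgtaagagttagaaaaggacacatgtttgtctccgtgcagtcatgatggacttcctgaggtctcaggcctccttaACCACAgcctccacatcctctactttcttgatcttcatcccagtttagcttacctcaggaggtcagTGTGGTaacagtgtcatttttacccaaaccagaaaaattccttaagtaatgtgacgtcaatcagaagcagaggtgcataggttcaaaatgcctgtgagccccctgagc
Gzmd, chr14:56132594-56132843, minus strand: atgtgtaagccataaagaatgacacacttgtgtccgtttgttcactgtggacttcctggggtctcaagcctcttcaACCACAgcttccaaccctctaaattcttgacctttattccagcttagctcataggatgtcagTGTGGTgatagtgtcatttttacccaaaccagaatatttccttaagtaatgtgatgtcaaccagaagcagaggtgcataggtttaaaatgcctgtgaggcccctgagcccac
Gzmn, chr14:56174600-56174849, minus strand: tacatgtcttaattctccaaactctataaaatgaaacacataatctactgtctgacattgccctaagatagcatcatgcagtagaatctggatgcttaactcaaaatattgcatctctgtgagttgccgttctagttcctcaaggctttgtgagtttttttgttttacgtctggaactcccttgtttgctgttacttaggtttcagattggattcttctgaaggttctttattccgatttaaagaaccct

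A Runx motif was present in 6 of the 8 member windows, against 18.6% of 32851 RefSeq promoter windows of the same length. The T-box motif GGTGTG was found in 3 of 8 (16.3% of all windows), in Gzmk, Nkg7 and Fasl. The Stat motif TTCNNNGAA was found in 2 of 8 (7.02% of all windows), in Gzmm and Nkg7. Both strands were searched. The T-box and Runx motifs share the letters TGTG, so matches to them can overlap. Within the chromosome 14 cluster, the windows of Gzmc and Gzmd were identical at 83.6% of positions and those of Gzmd and Gzme at 95.2%, whereas Gzmc and Gzmb shared 58.0% and Gzmc and Gzmn 61.2%. The windows of Gzmc and Gzmd above, and those of Gzme, Gzmf and Gzmg, each held 2 Runx matches, and the Gzmn window held none. A match describes the letters only.

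Loss of Ezh2 went with higher RNA of most cytotoxic effectors in both cultures. In Th0 cells 6 of the 9 rose (Gzma, Gzmk, Prf1, Nkg7, Ctsw and Fasl) and 0 fell, where 8.74% of the 12845 genes tested rose and 3.22% fell. In iTreg cells 6 rose (Gzma, Gzmb, Gzmc, Gzmk, Nkg7 and Fasl) and 1 fell (Prf1), where 9.45% of genes rose and 7.26% fell. The median log2 change of the 9 was 3.28 in Th0 (3.18 with Gzmk, whose controls held no read, at its lower bound) and 4.43 in iTreg, beside 0.00 and 0.01 over all genes tested. All 9 passed the filter on low counts, but Gzmk passed only through the Ezh2-deleted libraries, in which it had to be the higher. Without iTreg libraries Ezh2KO.165 and 177, all 9 rose in Th0 and the same 6 rose and 1 fell in iTreg, while the calls over all 12978 genes then tested were 3415 higher and 3282 lower in Th0 and 3731 higher and 3678 lower in iTreg. Fitted to the 6 iTreg libraries alone, 3 rose (Gzma, Gzmk and Fasl) and 0 fell, with 331 genes higher and 208 lower overall.

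**Figure D1:**
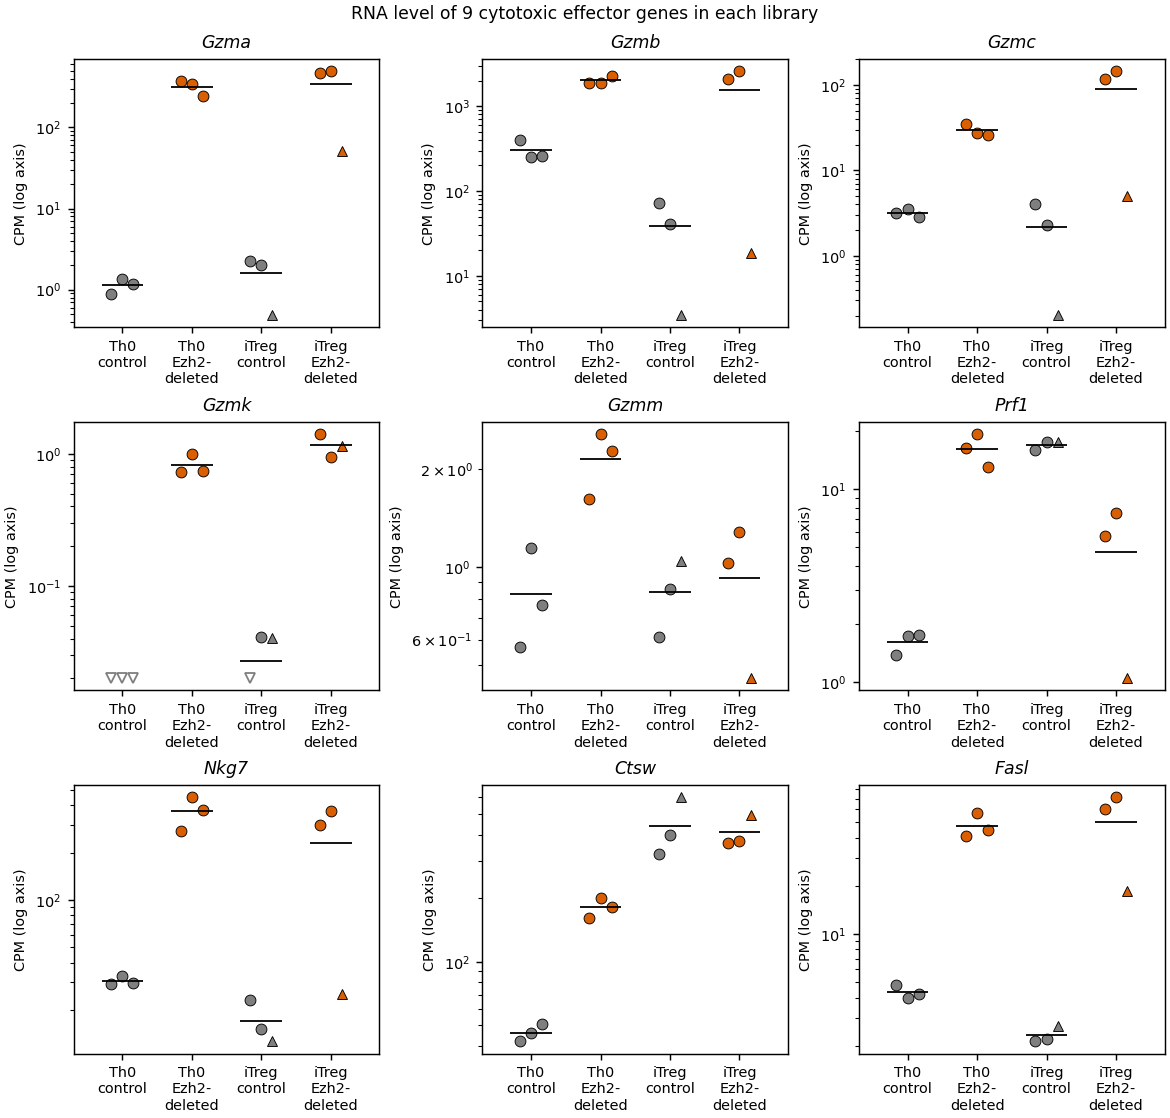
RNA level (CPM, log axes) of each of the 9 genes in the 12 libraries, grouped by culture and genotype (grey, control; orange, Ezh2-deleted), with horizontal bars at group means. Triangles are iTreg libraries Ezh2KO.165 and 177, and open downward triangles are libraries without a read, drawn at the bottom; Gzma control libraries lie between 0.484 and 2.25 CPM and all Ezh2-deleted libraries at 50.6 CPM or more.

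**Figure D2:**
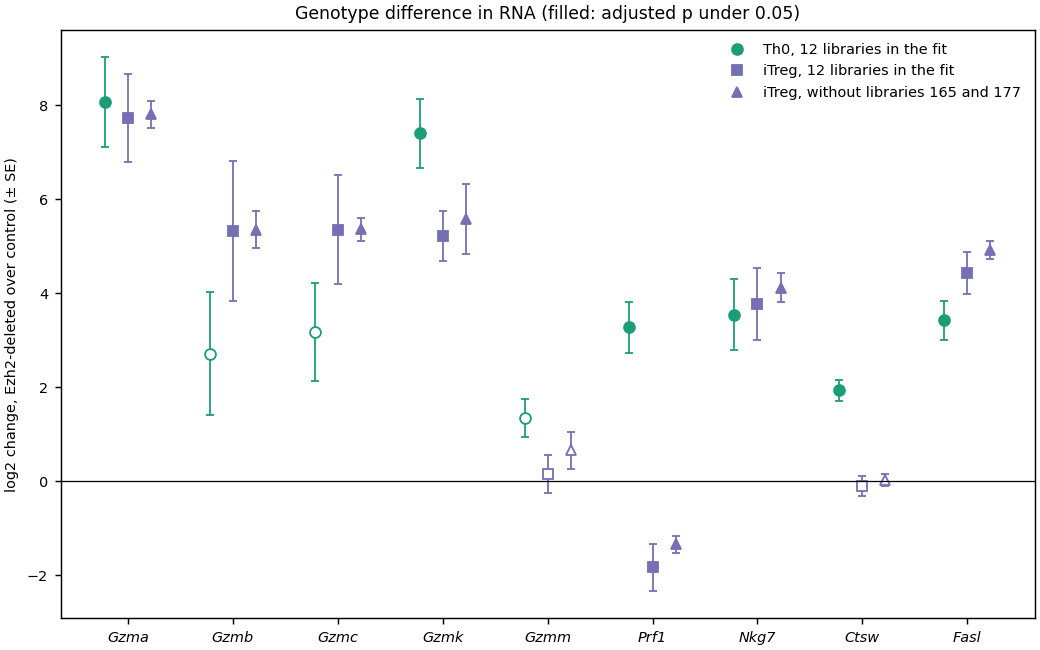
Log2 change of each gene in Ezh2-deleted over control cells, with SE bars, in Th0 (circles), in iTreg with all 12 libraries in the fit (squares) and in iTreg without libraries Ezh2KO.165 and 177 (upward triangles); filled symbols passed an adjusted p of 0.05. The fitted Th0 value of Gzmk, against controls without a read, is no bound, and Prf1 lies at 3.28 in Th0 and at -1.83 in iTreg.

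Gzma (chr13:113093825-113100979), the granzyme of tryptase-like specificity, showed the largest genotype difference of the 9 on the fitted scale in both cultures. Th0 control libraries 173, 176 and 177 had 0.895, 1.37 and 1.18 CPM, whereas the Ezh2-deleted group held 374 CPM in Ezh2KO.165, 341 in Ezh2KO.174 and 241 in Ezh2KO.175. The ratio of means was 277 (log2 change 8.07, SE 0.96, adjusted p = 0.000664). The groups were far apart and the controls sat near 1 CPM. In iTreg cells the controls 154, 155 and 177 had 2.25, 2.04 and 0.484 CPM, and the Ezh2-deleted group held 473 CPM in Ezh2KO.150, 492 in Ezh2KO.153 and 50.6 in Ezh2KO.165 (log2 change 7.73, SE 0.94, adjusted p = 0.000516). Library Ezh2KO.165 was the lowest of its group and still above every control, and without it and 177 the change was 7.81 (SE 0.28).

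Gzmb (chr14:56258856-56262260), the granzyme that cuts after aspartate and activates caspases, was the most abundant of the set in every group but the iTreg controls. In Th0 controls it had 395, 249.7 and 259.7 CPM, and in Th0 Ezh2-deleted libraries 1865, 1902 and 2296 CPM. The libraries did not overlap, yet the change of 2.71 (SE 1.31) did not pass in the fit of 12 libraries (adjusted p = 0.255). With both iTreg libraries Ezh2KO.165 and 177 left out it did (2.71, SE 0.28, adjusted p = 0.000311), as it did without Ezh2KO.165 alone (adjusted p = 0.0225) and in the 6 Th0 libraries fitted alone (adjusted p = 0.00105). In iTreg controls Gzmb had 72.6, 41.1 and 3.43 CPM, and in Ezh2-deleted libraries 2086, 2581 and 18.5 CPM. Here library Ezh2KO.165 lay between the controls, so the groups overlapped. The rise of 5.32 (SE 1.48, adjusted p = 0.0343) was lost in 12 of 18 alternatives, with adjusted p up to 0.234, and stood at 5.36 (SE 0.40, adjusted p = 4.62e-05) without Ezh2KO.165 and 177.

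Gzmc (chr14:56231401-56234656), a neighbour of Gzmb in the chromosome 14 cluster, was lower in level but similar in pattern. Th0 controls had 3.13, 3.52 and 2.83 CPM and Ezh2-deleted libraries 34.6, 27.5 and 25.8 CPM, without overlap (log2 change 3.18, SE 1.05, adjusted p = 0.0842). The difference passed in DESeq2 (adjusted p = 0.00736) and with Ezh2KO.165 and 177 left out (3.17, SE 0.20, adjusted p = 4.25e-06). In iTreg cells the controls had 4.04, 2.28 and 0.201 CPM and the Ezh2-deleted libraries 118, 144 and 5.02 CPM, again without overlap, and Gzmc rose by 5.35 (SE 1.16, adjusted p = 0.0106). That call was lost without control 155 or with the 6 iTreg libraries alone, where the adjusted p reached 0.140.

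Gzmk (chr13:113171608-113225908), the second tryptase-like granzyme and a neighbour of Gzma, was read only at low depth. No Th0 control library held a read, against 19, 27 and 21 reads in the Ezh2-deleted libraries, a mean of 0.825 CPM. Taking 3 counts per library as the floor for a count of 0, it was at least 7.12-fold higher (adjusted p = 0.000646). In iTreg controls it had 0, 1 and 1 reads, and in Ezh2-deleted libraries 34, 22 and 25 reads, with Ezh2KO.165 in the middle of its group. The ratio of pooled counts was 44.1, with an exact Clopper-Pearson 95% interval of 11.8 to 370.2 that covers counting error only (adjusted p = 0.000516). Gzmk was thus the one granzyme for which library Ezh2KO.165 did not stand below its mates.

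Gzmm (chr10:79689020-79695261), the granzyme that cuts after methionine, was close to 1 CPM throughout. Its Th0 controls had 0.569, 1.15 and 0.764 CPM and its Ezh2-deleted libraries 1.62, 2.56 and 2.29 CPM, without overlap, and the change of 1.34 (SE 0.40) did not pass (adjusted p = 0.0593). It passed in DESeq2 (1.33, adjusted p = 0.0108) and without Ezh2KO.165 and 177 (1.34, SE 0.29, adjusted p = 0.00148). In iTreg cells the controls had 0.609, 0.857 and 1.05 CPM and the Ezh2-deleted libraries 1.03, 1.29 and 0.456 CPM. These overlapped, and the log2 difference was 0.15 (SE 0.41, adjusted p = 0.878).

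The other 5 granzymes of the chromosome 14 cluster were nearly silent in controls. Gzmd had 1, 1 and 2 reads in Th0 controls and 157, 88 and 40 in Ezh2-deleted libraries, and rose (log2 change 5.96, SE 0.84, adjusted p = 0.00353). Gzme had 0 reads in every Th0 control and 71, 59 and 24 in Ezh2-deleted libraries, at least 16.6-fold higher (adjusted p = 0.00144). In iTreg cells, Gzmd, Gzme and Gzmf rose, from at most 2 reads per control library to 9 to 30, 12 to 20 and 2 to 20 reads, with adjusted p of 0.00805, 0.00485 and 0.0217. Gzmf in Th0 stood at 1 to 3 reads against 8 to 13 (adjusted p = 0.138), and Gzmg, with at most 16 reads in a library, was not tested. Gzmn had no read in any library. Gzmd, Gzme and Gzmf passed the filter on low counts only through Ezh2-deleted libraries, in which they had to be the higher, so their direction is no finding. Gzmc to Gzmg are related genes of the same cluster, and how the counting treated reads that fit several of them is not given in the sources used here, so their separate counts are uncertain.

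Prf1 (chr10:61297836-61304263), which encodes perforin, was the member whose genotype difference turned over between cultures. Th0 controls had 1.38, 1.74 and 1.76 CPM and Th0 Ezh2-deleted libraries 16.4, 19.2 and 13.1 CPM, a rise of 3.28 (SE 0.54, adjusted p = 0.00417). In iTreg cells the controls had 15.9, 17.5 and 17.6 CPM, the level of Ezh2-deleted Th0 cells, and the Ezh2-deleted libraries had 5.70, 7.50 and 1.05 CPM. Neither pair of groups overlapped. Prf1 fell by 1.83 (SE 0.51, adjusted p = 0.0332) in iTreg, a call lost in 11 of 18 alternatives with adjusted p up to 0.235. Without Ezh2KO.165 and 177 the fall was -1.34 (SE 0.18, adjusted p = 3.15e-05). The difference between the genotype effects, tested as an interaction, was -5.11 (SE 0.74, adjusted p = 0.00527), and it passed in all 17 alternatives run, with values from -5.60 to -4.62.

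Nkg7 (chr7:43437073-43438246) encodes a membrane protein of cytotoxic granules that takes part in their release. Th0 controls had 29.3, 32.8 and 29.6 CPM and Ezh2-deleted libraries 272, 448 and 375 CPM (log2 change 3.54, SE 0.75, adjusted p = 0.0132). The groups did not overlap. Leaving out any 1 Th0 control (173, 176 or 177) ended the call, with adjusted p up to 0.0645. In iTreg cells the controls had 23.0, 15.1 and 12.7 CPM and the Ezh2-deleted libraries 299.7, 367 and 25.3 CPM (log2 change 3.77, SE 0.76, adjusted p = 0.0075). Library Ezh2KO.165 stood barely above the highest control, and with the 6 iTreg libraries alone the adjusted p was 0.109.

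Ctsw (chr19:5465240-5468498) encodes cathepsin W, a cysteine peptidase of natural killer and cytotoxic T cells. Its Th0 controls had 42.1, 45.9 and 50.9 CPM and its Ezh2-deleted libraries 162, 201 and 181 CPM, a rise of 1.94 (SE 0.22, adjusted p = 0.000571). In iTreg cells both genotypes were high, with 325, 399.6 and 599.5 CPM in controls and 367, 371 and 495 CPM in Ezh2-deleted libraries. These overlapped, and the log2 difference was -0.10 (SE 0.22, adjusted p = 0.850). The interaction was -2.03 (SE 0.31, adjusted p = 0.00633) and passed in all 17 alternatives, with values from -2.27 to -1.75. Among all genes tested, 1.63% had a higher and 2.86% a lower genotype effect in iTreg than in Th0. Of the 9 members 0 were higher and 2 lower, Prf1 and Ctsw. Without Ezh2KO.165 and 177, Gzmb (2.64, SE 0.44, adjusted p = 0.00393), Gzmc (2.19, SE 0.34, adjusted p = 0.00144) and Fasl (1.50, SE 0.26, adjusted p = 0.00107) also passed, with the larger effect in iTreg. In that fit 2584 of the 12978 genes tested had a higher effect in iTreg and 2763 a lower one.

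Fasl (chr1:161780691-161788495), the ligand of the death receptor Fas, rose in both cultures. Th0 controls had 4.80, 4.00 and 4.20 CPM, and the Ezh2-deleted libraries had 41.2, 56.7 and 44.8 CPM (log2 change 3.42, SE 0.42, adjusted p = 0.000812). In iTreg cells the controls had 2.13, 2.20 and 2.66 CPM and the Ezh2-deleted libraries 60.5, 71.3 and 18.6 CPM (log2 change 4.43, SE 0.45, adjusted p = 0.000194). No library of one genotype overlapped the other in either culture, and the call held in all 18 alternatives of each comparison. Of the 11 genes of the list of death receptors, other death ligands and their signalling, 1 rose and 1 fell in Th0. Tnfsf10, which encodes the ligand TRAIL, rose by 1.20 (SE 0.25, adjusted p = 0.0110, 0.0575 without control 173), and Ltb, which encodes lymphotoxin beta, fell by 1.66 (SE 0.30, adjusted p = 0.00587). In iTreg 0 of 11 passed in edgeR and 1, lower, in DESeq2. The lowest adjusted p in edgeR was 0.0699, for the initiator caspase gene Casp8 (-0.67, SE 0.22). Without Ezh2KO.165 and 177 the list gave 3 higher and 5 lower in Th0, where 26.3% of all genes were higher and 25.3% lower, and 4 higher and 2 lower in iTreg, where 28.7% were higher and 28.3% lower. With all 12 libraries these shares were 8.74% and 3.22% in Th0 and 9.45% and 7.26% in iTreg.

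Levels can be compared between the genes per kilobase of the deposited gene length (RPKM). In Th0 controls Gzmb led at 213 ± 57.2 RPKM (SD, n = 3), followed by Nkg7 at 37.6 ± 2.36 and Ctsw at 37.6 ± 3.62, which did not differ beyond their spread. Gzmc at 3.38 ± 0.37, Gzma at 1.31 ± 0.27 and Fasl at 1.13 ± 0.11 followed, then Prf1 and Gzmm below 1 RPKM and Gzmk without a read. In Th0 Ezh2-deleted cells Gzmb stood at 1427 ± 169 RPKM. Nkg7 at 449 ± 108 and Gzma at 363 ± 79.0 came next with overlapping libraries, so that Gzma moved from below Gzmc to above Ctsw (147 ± 15.9). In iTreg controls the order was headed by Ctsw at 358 ± 115 RPKM, with Gzmb at 27.6 ± 24.5, Nkg7 at 20.8 ± 6.67 and Prf1 at 8.29 ± 0.47. In iTreg Ezh2-deleted cells Gzmb (1103 ± 960), Gzma (386 ± 284), Ctsw (333 ± 59.2) and Nkg7 (284 ± 223) overlapped one another.

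Between the cultures, 2 of the genes stood apart in control cells. Prf1 was higher in iTreg than in Th0 controls (log2 change 3.31, SE 0.55, adjusted p = 0.00234), and so was Ctsw (3.18, SE 0.23, adjusted p = 3.58e-05). These were 2 higher and 0 lower of 9, where 19.9% of all genes were higher and 11.5% lower. Gzmb had a log2 difference of -3.01 (SE 1.33, adjusted p = 0.103) and passed as lower in iTreg without Ezh2KO.165 and 177 (-2.47, SE 0.34, adjusted p = 0.000689). In Ezh2-deleted cells 1 member was higher in iTreg and 2 lower, where 16.6% of genes were higher and 8.75% lower. Ctsw was higher (1.15, SE 0.22, adjusted p = 0.00722). Prf1 was lower (-1.80, SE 0.51, adjusted p = 0.0305), a call lost without Th0 library Ezh2KO.165, Ezh2KO.174 or Ezh2KO.175 and in the 6 Ezh2-deleted libraries alone (adjusted p up to 0.154). Lower as well was Gzmm (-1.24, SE 0.40, adjusted p = 0.0470), whose call was lost in 13 of 18 alternatives. These contrasts share their libraries with the genotype comparisons.

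Over the 12 libraries, Gzma, Gzmk, Nkg7 and Fasl followed one another, with Pearson r of log2 CPM from 0.787 (Gzmk with Nkg7) to 0.968 (Gzma with Fasl). Gzmc followed these 4 at 0.774 to 0.907. Prf1 followed them at 0.131 (Fasl) to 0.304 (Nkg7), and Ctsw at 0.036 (Nkg7) to 0.461 (Gzmk). Prf1 and Ctsw followed each other at 0.524. Among 9870 other genes, the closest pattern to Gzma was that of Cd160 (r = 0.986), to Gzmb that of Jazf1 (0.994), to Gzmc that of Stk3 (0.982) and to Gzmk that of Scmh1 (0.988). The closest to Nkg7 was Slamf7 (0.987), to Fasl Mctp2 (0.989), to Ctsw Myo1f (0.991), to Prf1 Myo10 (0.968) and to Gzmm Chid1 (0.922). These values describe libraries that share culture, genotype and depth.

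H3K27me3 in Th0 cells is given as CPM per kb of the gene interval, which spans the whole gene. Without an input or a spike-in among the libraries used, densities compare shares of each library. Across 20376 intervals tested, the middle of the distribution narrowed: quartiles were 0.534 and 1.4004 in control 33 and 0.409 and 1.48 in control 7, against 0.873 and 1.13 in Ezh2-deleted 10 and 0.803 and 1.14 in Ezh2-deleted 9. Scaled by library size, 32.2% of intervals were higher and 20.6% lower in Ezh2-deleted cells (6570 and 4205), and with TMM scaling 4956 were higher and 5699 lower. The median of all intervals was 0.21 with the first scaling and -0.02 with TMM. Of the 9 members, 3 were lower (Gzma, Gzmk and Prf1) and 1 was higher (Ctsw), with a median of -0.21.

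Gzma had 1.75 and 1.69 CPM per kb in controls 33 and 7 and 1.11 and 1.03 in Ezh2-deleted 10 and 9 (log2 change -0.68, SE 0.25, adjusted p = 0.0352). Prf1 went from 1.47 and 1.29 to 0.876 and 0.657 (-0.84, SE 0.28, adjusted p = 0.0235), and Gzmk from 1.402 and 1.34 to 0.847 and 0.868 (-0.68, SE 0.17, adjusted p = 0.00622). In each of these the libraries of the genotypes were apart, and the calls also passed with TMM (adjusted p = 0.0053, 0.00325 and 0.000176). Within 100 kb of Gzma, 2 of 2 tested intervals were lower (median -1.02), Gzmk among them. Near Prf1, 1 of 2 was lower (median -0.42). The Gzmk interval reaches 44943 bases beyond the RefSeq start site and overlaps Esm1, so its value is not that of the gene alone. Ctsw went the other way, from 0.634 and 0.271 to 1.04 and 0.937 (1.14, SE 0.40, adjusted p = 0.0312), on 23, 11, 51 and 34 reads, and did not pass with TMM (adjusted p = 0.0530). Of 13 tested intervals within 100 kb of Ctsw, 7 were higher and 2 lower, with a median of 0.86. Ctsw itself moved from percentile 22.4 of all intervals tested to 55.9. With Ezh2-deleted library 10 or 9 left out, 0 intervals passed in edgeR, while 7223 and 7401 had an unadjusted p under 0.05.

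Gzmb had 0.924 and 1.46 CPM per kb in controls and 1.38 and 1.21 in Ezh2-deleted libraries, which overlapped (log2 difference 0.12, SE 0.32, adjusted p = 0.784). Gzmc (-0.21, SE 0.30), Nkg7 (-0.25, SE 0.40, on 16 to 20 reads), Fasl (-0.15, SE 0.28) and Gzmm (0.35, SE 0.28) did not pass either. Their RNA differed by 3.18, 3.54, 3.42 and 1.34 on the log2 scale in Th0. Around Gzmc, copies that were silent or nearly so in controls had higher densities there: Gzmn at 2.38 and 2.83, Gzmf at 2.28 and 2.04 and Gzmg at 1.86 and 2.55 CPM per kb. All 3 were lower in Ezh2-deleted cells (-1.04, -1.02 and -1.37, with SE 0.24, 0.25 and 0.33 and adjusted p = 0.0046, 0.00669 and 0.00541). Gzmn fell to 1.34 and 1.18 CPM per kb and had no RNA read in either genotype. Gzmd (-0.65, SE 0.30, adjusted p = 0.0863) and Gzme (-0.57, SE 0.29, adjusted p = 0.114) did not pass with library size scaling or in DESeq2. Both passed as lower with TMM (adjusted p = 0.0195 and 0.0261), so all 5 of these intervals were lower by that scaling.

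**Figure D3:**
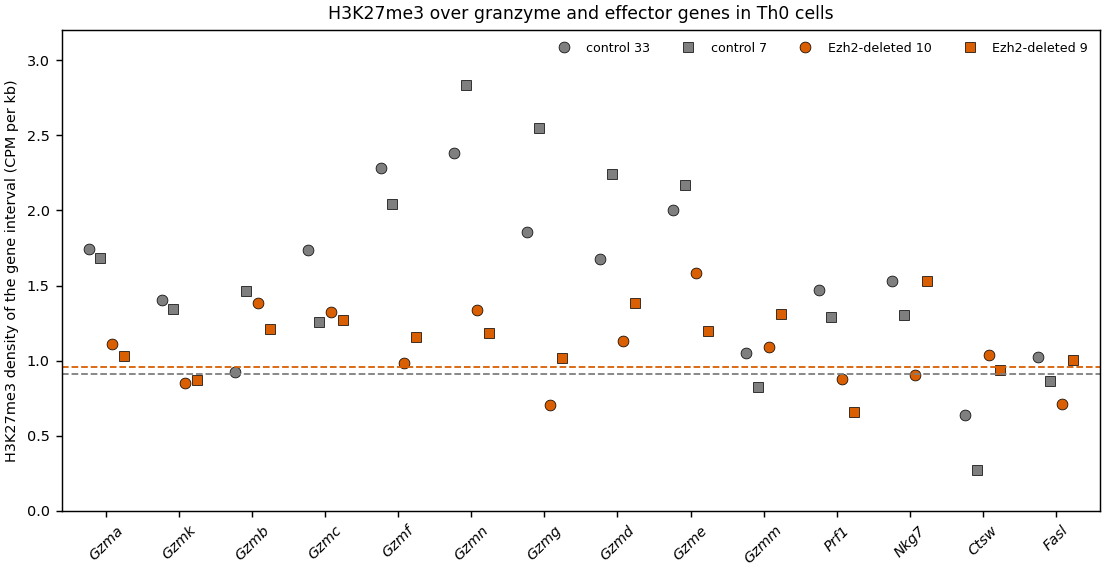
H3K27me3 density (CPM per kb of the gene interval) of the 9 members and the 5 other granzymes in each of the 4 Th0 ChIP libraries (grey, control; orange, Ezh2-deleted); dashed lines are the mean of each genotype's 2 library medians over all intervals tested. By the mean of the 2 controls Gzmn, Gzmg and Gzmf lie highest, in places overlapping Gzmd and Gzme, and Ctsw is the only one of the 14 genes whose Ezh2-deleted libraries passed as higher.

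**Figure D4:**
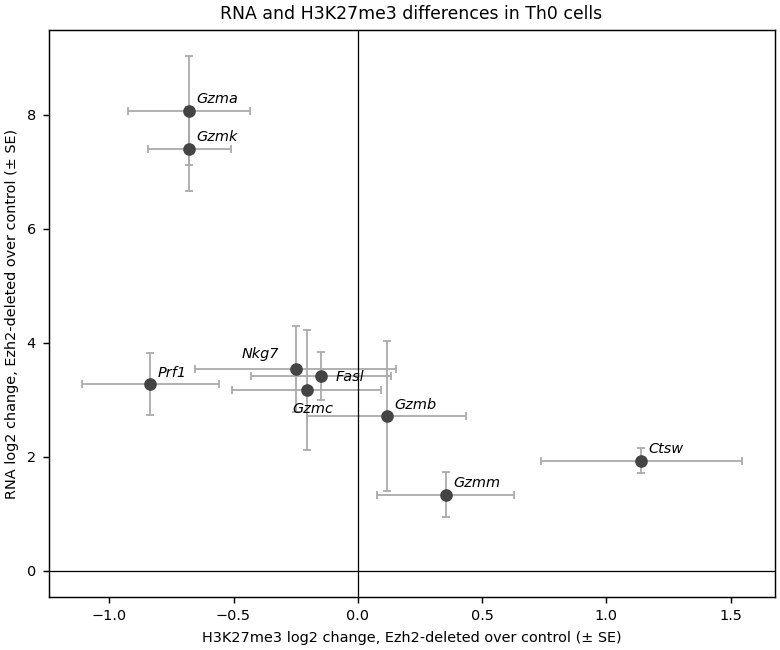
Log2 change of RNA (vertical) against log2 change of H3K27me3 (horizontal) in Th0 cells for the 9 members, each with SE bars from its own fit. All 9 RNA values lie above 0, from 1.34 to 8.07 (that of Gzmk is fitted against controls without a read and is no bound), and the H3K27me3 values run from -0.84 for Prf1 to 1.14 for Ctsw.

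Genes that act with granzymes in the granule were counted next. Of 15 tested genes of granule maturation and exocytosis, 4 rose and 0 fell in Th0, and 5 rose and 1 fell in iTreg (8 and 1, and 10 and 2, without Ezh2KO.165 and 177), to be read against the shares of all genes given with the death receptor list. Stx11, a syntaxin of granule fusion, rose by 0.82 (SE 0.14, adjusted p = 0.00452) in Th0 and 0.71 (SE 0.14, adjusted p = 0.00616) in iTreg. Cst7, cystatin F, an inhibitor of granule cathepsins, rose by 1.38 (SE 0.34, adjusted p = 0.0250) and 2.87 (SE 0.36, adjusted p = 0.000596). Its Th0 call was lost when any 1 Th0 library was left out, with adjusted p up to 0.0982. Ctsh, a cathepsin able to mature granzyme B, went in opposite directions, by 2.67 (SE 0.45, adjusted p = 0.00430) in Th0 and by -3.24 (SE 0.70, adjusted p = 0.0102) in iTreg, where it had 9 to 13 reads in controls and 0 to 2 in Ezh2-deleted libraries (interaction -5.91, SE 0.81, adjusted p = 0.00418). Genes of the B cell marker list took the same directions, with 6 of 6 higher in Th0 and 4 of 6 lower in iTreg. A link of Ctsh to B cells in the cultures was not tested. Srgn, the proteoglycan core that packs granules, rose in iTreg by 1.69 (SE 0.27, adjusted p = 0.00211), with 0.60 (SE 0.26, adjusted p = 0.208) in Th0.

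Serpins that inhibit granule proteases rose together with them. Of 5 tested, 5 rose in Th0 and 3 in iTreg, and 5 in each without Ezh2KO.165 and 177. Of all genes, 8.74% rose in Th0 and 9.45% in iTreg, and 26.3% and 28.7% without those 2 libraries. Serpinb9, the intracellular inhibitor of granzyme B, had a mean of 37.4 CPM in Th0 controls and 119 in Ezh2-deleted cells (1.63, SE 0.34, adjusted p = 0.0115, up to 0.0557 without control 173 or 176). Serpinb6a rose by 1.35 (SE 0.12, adjusted p = 0.000160) in Th0 and by 1.65 (SE 0.12, adjusted p = 3.43e-05) in iTreg. Serpinb6b rose by 1.37 (SE 0.19, adjusted p = 0.00171) and 2.08 (SE 0.20, adjusted p = 0.000157). Serpinb1a rose in Th0 alone among the tested cultures by the call (2.54, SE 0.29, adjusted p = 0.000564), with 0.10 (SE 0.27) in iTreg and an interaction of -2.44 (SE 0.39, adjusted p = 0.00843).

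Among 19 tested regulators of cytotoxic genes, 5 rose and 0 fell in Th0, and 6 rose and 1 fell in iTreg (8 and 7 in Th0 and 7 and 7 in iTreg without Ezh2KO.165 and 177). Over all genes, 8.74% rose and 3.22% fell in Th0, and 9.45% and 7.26% in iTreg. Without the 2 libraries 26.3% rose and 25.3% fell in Th0, and 28.7% and 28.3% in iTreg. Eomes, a T-box factor of cytotoxic lymphocytes, had 24.7 to 33.5 CPM in Th0 controls and 555 to 726 in Ezh2-deleted libraries (4.39, SE 0.61, adjusted p = 0.00163). In iTreg it had 5.92 to 11.9 CPM against 59.7 to 389 (4.88, SE 0.63, adjusted p = 0.000706), and its H3K27me3 density went from 2.95 and 5.29 to 0.919 and 0.975 CPM per kb (-2.12, SE 0.30, adjusted p = 0.000407). Id2, which restrains E proteins, rose by 2.94 (SE 0.53, adjusted p = 0.00605) and 2.40 (SE 0.52, adjusted p = 0.0104). Runx3, a factor of the CD8 lineage, rose in iTreg by 0.80 (SE 0.12, adjusted p = 0.00138), with 0.25 (SE 0.12, adjusted p = 0.247) in Th0. Zbtb7b, which encodes ThPOK and maintains the CD4 lineage, fell in iTreg by 0.87 (SE 0.13, adjusted p = 0.00126). Nfil3 rose in Th0 by 2.53 (SE 0.46, adjusted p = 0.00644). Of the 19 regulator intervals, 12 were higher and 3 lower in H3K27me3 (8 and 4 with TMM), where 32.2% of all intervals were higher and 20.6% lower (24.3% and 28.0% with TMM). Zbtb7b was among the higher, from 0.199 and 0.235 to 0.672 and 0.425 CPM per kb (1.34, SE 0.31, adjusted p = 0.00467). It stayed among the intervals of lowest density in both genotypes, at percentile 1.26 of all intervals tested in controls and 2.61 in Ezh2-deleted cells. Beside Eomes, the regulators with the highest control density were Prdm1 (2.53 and 2.64 CPM per kb in controls, 1.09 and 1.11 in Ezh2-deleted cells, adjusted p = 6.99e-05), Runx3 (adjusted p = 0.0283, lower) and Zeb2 (adjusted p = 0.0546).

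Markers of other cells moved with some of these groups. Cd4 was at 462 to 509 CPM in Th0 controls and 246 to 281 in Ezh2-deleted libraries. Its iTreg controls had 543 to 631 CPM and their Ezh2-deleted counterparts 388 to 501. In iTreg, Cd5 was also lower with deletion (274 to 355 CPM against 85.8 to 212). Cd3e (200 to 264 against 281 to 355) and Cd3g (193 to 291 against 323 to 489) were higher there. Of the 7 genes of the CD4 T list, 0 rose and 2 fell in Th0, and 2 rose and 3 fell in iTreg. Beside this and the lists below, 8.74% of all genes rose and 3.22% fell in Th0, and 9.45% and 7.26% in iTreg. Cd8a was at 8.58 to 17.1 CPM in iTreg controls, at 122 and 117 in Ezh2KO.150 and Ezh2KO.153 and at 17.7 in Ezh2KO.165, and at most 2.94 in Th0. Cd8b1, the other gene of the CD8 T list, did not share this pattern. It had 9.43 to 10.9 CPM in iTreg controls and 15.7 to 21.9 after deletion, with its highest value in library Ezh2KO.165. In Th0 its level was 6.07 to 8.12 CPM over both genotypes. Of the natural killer and NKT list, 2 of 4 tested genes rose in each culture. Its summed level was 1.07 to 1.42 CPM against 7.18 to 12.9 in Th0 and 16.2 to 21.8 against 48.7 to 98.0 in iTreg. Most of that was Klrd1, while Klra8 had no read in any library and Ncr1 at most 4. Klrb1c, Klre1 and Zbtb16 passed the filter on low counts only through Ezh2-deleted libraries, so a rise among them is no finding. Of the B cell list 6 of 6 rose in Th0 (24.4 to 42.7 against 74.7 to 173.7 CPM) and 4 of 6 fell in iTreg (11.3 to 12.2 against 3.60 to 5.34 CPM). The lists for gamma-delta T, myeloid, dendritic, mast with basophil and erythroid cells summed to at most 26.9 CPM in any library. Of tested dendritic genes, 1 of 3 rose in Th0 and 3 of 3 in iTreg. Of myeloid and of mast with basophil genes, 1 of 2 rose in Th0 and 0 in iTreg. Blk, the 1 gamma-delta T gene tested, rose in Th0 and fell in iTreg, and 0 of 2 erythroid genes passed. Flt3, Zbtb46, Fcer1g and Cpa3 passed the filter only through Ezh2-deleted libraries, so a rise among them is no finding. For gamma-delta T cells the sum rests on Sox13 and Blk alone, since Tcrg-C1, Tcrg-C2 and Trdc were not found by symbol. The part of these markers in the results above was not tested.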

How the data were processed

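The authors deposited raw counts, 1 file per library: RNA reads per gene, and H3K27me3 ChIP reads over each gene interval (whole numbers, checked on the files). Per the submitters' processing notes, reads were trimmed with Trimmomatic 0.30, aligned to mm10 with TopHat2 2.0.6 (RNA) or Bowtie2 2.1.0 (ChIP) and counted with featureCounts 1.4.2; the strand setting is not given in the sources used here. Counts were tested with edgeR 4.0.16 (R 4.3.3, robust quasi-likelihood F test, two-sided, filterByExpr with a minimum count of 10, Benjamini-Hochberg over all features, threshold 0.05). RNA used TMM and 1 fit of all 12 libraries as 4 groups; ChIP used 4 libraries scaled by library size alone. CPM and RPKM divide by total counted reads. DESeq2 1.42.0, other scaling, no filter, each library left out, and the iTreg libraries Ezh2KO.165 and 177 left out were alternatives. The choice of Ezh2KO.165 and 177 rests on these data, in which they stood apart. Without them the cultures share no library number, so culture and interaction values then compare separate sets of numbers. Leaving out both libraries Ezh2KO.165 was added after seeing the results. The script was tested on simulated counts. The members and gene lists were chosen with earlier results of these data known. The text names the 9 members, the other granzymes, up to 4 genes of each list by smallest p in either culture, the 4 regulators with the highest control H3K27me3 density, and 1 like-patterned gene per member. Libraries of a group are called biological replicates in the labels. The p-values measure the spread between libraries within groups, pooled over all groups of a fit. In RNA, the spread of iTreg libraries Ezh2KO.165 and 177 therefore also enters the Th0 comparisons. A result on 1 listed gene was left out and is not reported here.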

Additional observations from a re-analysis of the deposited data

Results flagged for a closer look

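Prf1 responded to Ezh2 deletion differently in the 2 cultures by the interaction test, with a log2 effect in iTreg minus that in Th0 of -5.11 (edgeR adjusted p = 0.00527). All 3 Th0 Ezh2-deleted libraries were above all controls, and all 3 iTreg Ezh2-deleted libraries were below all controls. Ctsw also differed between the cultures, by -2.03 (adjusted p = 0.00633), with a rise in Th0 and overlapping genotypes in iTreg.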

How the results depend on the processing

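In 18 alternatives for each genotype comparison, Gzma, Gzmk and Fasl kept their calls in both cultures, as did Prf1 and Ctsw in Th0. Gzmk passed the filter on low counts only through Ezh2-deleted libraries, so its kept direction is no finding. With the 6 iTreg libraries alone, 3 members rose and 0 fell in iTreg, and leaving out 1 library gave 0 to 1 lower. Over all genes 331 rose and 208 fell in the first, and 608 to 3030 were lower in the second. For the interaction, the members with a higher effect in iTreg numbered 3 without both iTreg libraries Ezh2KO.165 and 177, 1 without both Ezh2KO.165 (an alternative chosen after seeing the data), and 0 to 2 with 1 library left out. All genes with a higher effect numbered 2584, 709 and 72 to 1054 in these fits, against 209 in the main fit. For iTreg against Th0 in controls, those lower numbered 2 by DESeq2, 2 without Ezh2KO.165 and 177, 3 without both Ezh2KO.165, 3 in the 6 control libraries alone and 0 to 3 with 1 library left out. All genes lower numbered 2424, 4122, 3697, 3262 and 672 to 3803 in the same order, against 1472 in the main fit. In Ezh2-deleted cells, those higher numbered 4 without Ezh2KO.165 and 177, 2 without both Ezh2KO.165 and 1 to 3 with 1 library left out, where 3732, 1459 and 689 to 2842 of all genes were higher (2138 in the main fit). Those lower numbered 1 without a filter, 1 without both Ezh2KO.165, 0 in the 6 libraries of the genotype alone and 0 to 2 with 1 left out. The lower genes overall in these fits numbered 904, 1042, 211 and 410 to 1635, against 1124 in the main fit. RNA fits tested 12179 to 13142 genes, or 17680 without a filter. H3K27me3 gave 0 members higher by TMM or DESeq2, and 0 to 1 higher and 0 to 3 lower with 1 library left out; with either Ezh2-deleted ChIP library left out, 0 of all intervals passed in edgeR.

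The values that changed sign had not passed the test. Ctsw in iTreg was 0.025 without Ezh2KO.165 and 177 and -0.28 to 0.18 with 1 library left out; Gzmm in iTreg was -0.16 to 0.47. The interaction of Gzma was 0.30 without both Ezh2KO.165 and -0.77 to 0.17; that of Nkg7 was -0.28 to 0.76. Between cultures in controls, Gzmm was 0.013 by library size and -0.27 to 0.26. In Ezh2-deleted cells Gzma was -0.32 to 0.57, Fasl was -0.30 to 0.44, and Gzmb was 0.18 without Ezh2KO.165 and 177, 0.11 without both Ezh2KO.165 and -0.98 to 0.18 with 1 left out. H3K27me3 over Gzmb was -0.12 by TMM and -0.077 by DESeq2, and with 1 library left out Gzmb was -0.17 to 0.49, Gzmc -0.42 to 0.042, Nkg7 -0.64 to 0.11 and Fasl -0.41 to 0.084.

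All-gene calls depend on the libraries: Th0 genes higher numbered 602 to 3415 over the alternatives. The cause of these differences was not tested. No paired analysis was possible because the genotypes share no library number and the cultures share 1 per genotype. Genes near 1 CPM, and ChIP intervals of 11 to 51 reads such as those of Nkg7 and Ctsw, have the widest counting error.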
